A study of Mus musculus with 6 samples.

Results

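The enzymes of glycolysis and of the pentose phosphate pathway were followed in whole pancreatic islets as 31 genes, chosen by symbol from the 56980 gene IDs of the count table. All 31 symbols matched an ID, and the symbol Aldoa matched a second ID with few reads, so that the table held 32 rows. Every member passed the filter on low counts and was tested together with the other genes, 18558 in all. The set comprised 9 main isozymes of the glycolytic steps (Gpi1, Pfkl, Aldoa, Tpi1, Gapdh, Pgk1, Pgam1, Eno1 and Pkm) and 6 alternative glycolytic isozymes (Hk2, Pfkm, Pfkp, Aldoc, Eno2 and Pklr). It further held 2 regulators of phosphofructokinase, 2 genes of lactate handling, 3 gluconeogenic enzymes, 3 glycerol-3-phosphate dehydrogenases, the ketohexokinase gene Khk and 5 genes of the pentose phosphate pathway.

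Islet RNA came from mice 14 weeks old. The 3 control libraries were from animals of genotype SSBP3F/F, with floxed alleles of Ssbp3, whose protein partners the transcriptional cofactor LDB1. The 3 knockout libraries were from SSBP3F/F animals with MIP-CreER. This is an inducible Cre recombinase driven by the mouse insulin promoter and thus aimed at beta cells, while the RNA came from all cells of the islet. Both groups carried the floxed alleles, and no library with MIP-CreER and intact Ssbp3 was analysed here, so the transgene and the deletion cannot be told apart. Whether a library held 1 animal or several is not stated in the labels; the p-values therefore reflect only library-to-library spread, some of which may be technical.

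Glycolysis splits glucose into pyruvate and yields ATP and NADH. In beta cells this flux couples blood glucose to insulin secretion, and the pyruvate is sent mostly to the mitochondria because lactate dehydrogenase A and the lactate carrier MCT1 are normally kept low. The pentose phosphate pathway branches off at glucose 6-phosphate and yields NADPH and ribose 5-phosphate. Many enzymes exist as isozymes from separate genes: the liver form of pyruvate kinase belongs to tissues that handle glucose loads, and its gene Pklr is a textbook target of the glucose-responsive factor ChREBP.

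Library totals ran from 14907641 to 225428920 counts, and control 1 (17587055) and knockout 1 (14907641) were the shallow libraries. A count of 3 corresponded to between 0.0133 and 0.201 CPM (read counts scaled to the size of the library), a limit that covers counting error only. Ssbp3 itself measured 65.8, 81.3 and 74.2 CPM in the controls and 52.3, 58.1 and 57.1 CPM in the knockouts; all knockout values were below all control values, but the gene missed the threshold (edgeR adjusted p = 0.0581, log2 fold change -0.40 with SE 0.117). The counts cover the whole gene, and which exons were deleted is not stated in the labels. Beta-cell markers identified the tissue, with Ins1 and Ins2 between 33885 and 157818 CPM in every library. Control 3 stood apart from the other libraries in the main glycolytic enzymes, so the results that rest on it are given with and without it.

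The promoters below are shown because Pklr rose and Slc16a3 fell in the knockout islets, and because Pgk1 had the lowest log2 fold change of the main isozymes. They are the bases upstream of a RefSeq transcription start (GRCm38.p6), 5′ to 3′ on the plus strand, each ending before the first base annotated as an exon. In Pklr the capitals mark CACG and CGTG with any 9 bases between them, the spacing of a carbohydrate response element. In Pgk1 and Slc16a3 they mark ACGTG on either strand, the core of a hypoxia response element.
Pklr, second start, chr3:89136373-89136571: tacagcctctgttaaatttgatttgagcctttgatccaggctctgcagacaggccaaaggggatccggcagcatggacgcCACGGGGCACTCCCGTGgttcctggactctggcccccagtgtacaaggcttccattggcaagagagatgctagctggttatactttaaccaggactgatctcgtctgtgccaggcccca
Pgk1, chrX:106186850-106187099: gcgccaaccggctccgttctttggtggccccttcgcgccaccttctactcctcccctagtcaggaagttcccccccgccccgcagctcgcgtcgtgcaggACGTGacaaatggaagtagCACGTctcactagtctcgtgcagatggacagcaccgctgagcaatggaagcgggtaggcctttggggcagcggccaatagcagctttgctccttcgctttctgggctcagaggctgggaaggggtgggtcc
Slc16a3, chr11:120948817-120949052: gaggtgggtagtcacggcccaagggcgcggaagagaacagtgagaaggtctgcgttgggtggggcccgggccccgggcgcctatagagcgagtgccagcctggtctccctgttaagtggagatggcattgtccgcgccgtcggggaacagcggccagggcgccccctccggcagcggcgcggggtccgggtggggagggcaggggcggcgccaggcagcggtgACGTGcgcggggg

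RefSeq windows of 250 bases were at hand for 30 of the 31 members (45 starts), and both strands were searched. The spaced CACG and CGTG pair stood in 1 of the 45, that of Pklr, where it began 170 bases before the start, and in 0.219% of all 32851 promoters. The ACGTG core stood in 17 of the 45, belonging to 13 members, and in 16.6% of all promoters. Among the main isozymes and lactate genes it was found for Aldoa, Pgk1, Pgam1, Pkm and Slc16a3. The Slc16a3 window held it once more, in annotated exon bases that are not printed. CACGTG, which contains ACGTG on both strands, stood in 6 of the 45 and in 6.02% of all promoters. These matches describe the letters of the windows and not binding.

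Of the 31 members, 2 rose in knockout islets, Pklr and H6pd (6.45%, against 3.72% of all genes tested called higher), and 1 fell, the lactate exporter gene Slc16a3 (3.23%, against 3.35% called lower). In either direction 7.07% of all genes were called, so these shares lie near the background. Log2 fold changes were negative for 24 members and positive for 7, with a median of -0.26 beside -0.00 over all genes tested. The groups did not overlap for 11 members, with all knockout values on the lower side for 9 (29.0%, against 14.1% of all genes) and on the higher side for 2 (6.45%, against 14.0%; 28.0% of all genes did not overlap). An unadjusted p under 0.05 was reached by 12 members (38.7%, against 21.6%). In RNA from whole islets, fewer cells of a type and less RNA per cell cannot be told apart. The 9 beta-cell markers summed to between 188678 and 243778 CPM in the controls and between 141689 and 159379 CPM in the knockouts, and edgeR called 3 of them lower. Of the 7 duct markers, 5 had positive log2 fold changes, and the median was 0.29. Their sum was nevertheless lower in all knockouts (1747 to 2266 against 1002 to 1482 CPM), where Spp1, most of that sum in the controls, went from between 1158 and 1481 CPM to between 349.7 and 823 CPM without being called (edgeR adjusted p = 0.055). The pooled delta and PP markers were lower in sum in all knockouts (5989 to 9737 against 4062 to 5660 CPM, 1 of 3 called lower). The endothelial markers were higher in sum in all knockouts (196 to 228 against 239 to 299.8 CPM, 1 of 7 called higher), though several of them overlapped between the groups. Sums for acinar cells, from 13016 to 43525 CPM with 1 of 14 called lower, and for alpha, stromal, immune, Schwann and fat cells, with 0 called by edgeR, overlapped between the groups. The part of these cell types in the members' values was not tested.

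**Figure D1:**
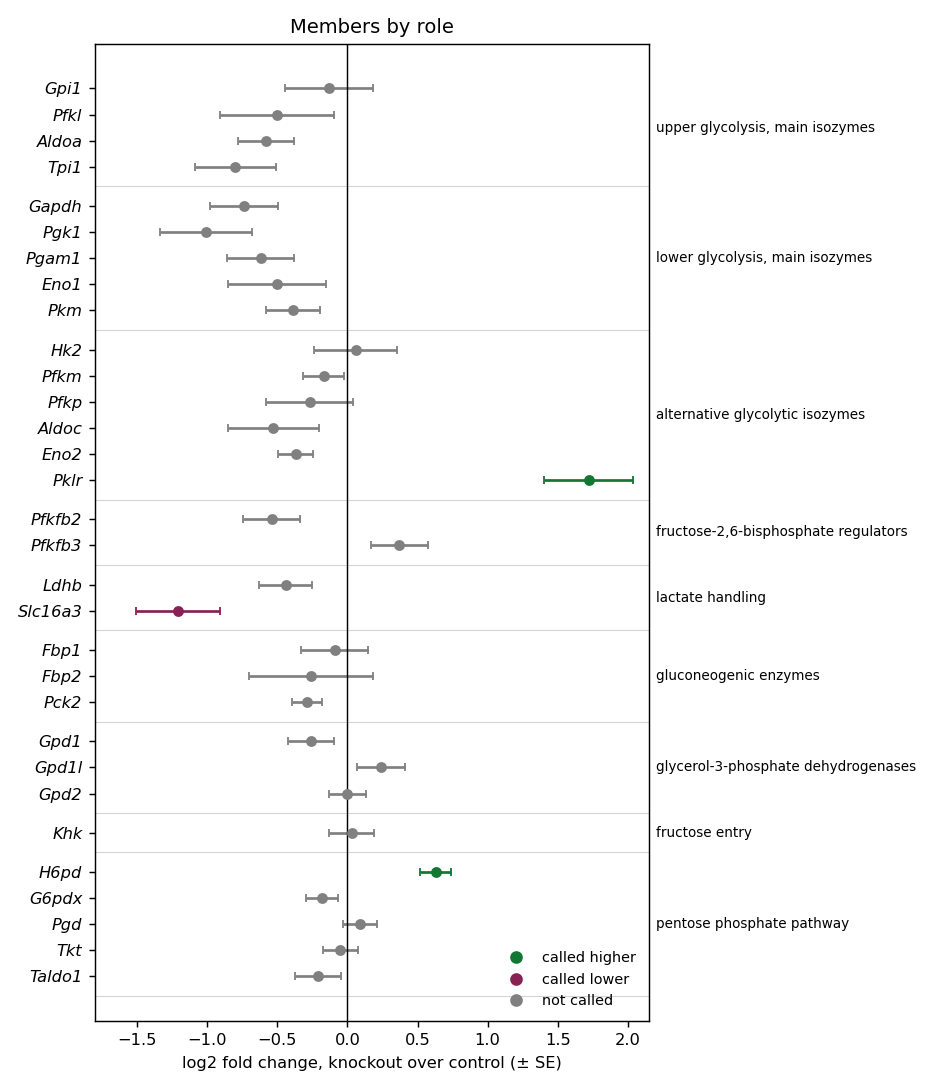
Log2 fold change of knockout over control (x axis, dimensionless) with its standard error for each of the 31 members, grouped by role; green is called higher, purple called lower and grey not called at an edgeR adjusted p under 0.05. Pklr at 1.72, H6pd at 0.63 and Slc16a3 at -1.21 are the called members, and all 9 main isozymes lie left of 0.

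Pklr (ENSMUSG00000041237), the liver-type pyruvate kinase gene, rose 3.3-fold. Control 1, 2 and 3 had 2.99, 8.24 and 7.48 CPM, while knockout 1, 2 and 3 had 25.2, 17.4 and 21.5 CPM. The lowest knockout value stood well above the highest control value. The log2 fold change was 1.72 (SE 0.315, edgeR adjusted p = 0.0124), and the call was lost without knockout 3 (edgeR adjusted p = 0.0656, log2 fold change again 1.72). Pklr shares 711 of its 3236 annotated exon bases with Hcn3 on the opposite strand. Hcn3 itself ran from 8.69 to 12.9 CPM with overlapping groups (log2 fold change 0.13, edgeR adjusted p = 0.751). Red cells also use Pklr; the 6 erythroid markers summed to between 13.7 and 26.8 CPM in the controls and between 33.05 and 614 CPM in the knockouts. Each of the 5 erythroid markers tested was above all controls in all knockouts, as were 14.0% of all genes tested. EdgeR and limma-voom called 0 of them. An unadjusted p under 0.05 was reached by 3 and 5 (by edgeR, 21.6% of all genes). DESeq2 called 4 of the list higher, beside 1061 among all genes. Knockout 2 had the highest erythroid sum and the lowest Pklr of the knockouts. The part of erythroid RNA in the Pklr values was not tested.

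The muscle-type gene Pkm, which dominates pyruvate kinase in islets, did not move with Pklr. Its values were 837, 1069 and 1536 CPM in the controls and 899, 841 and 884 CPM in the knockouts, which lay within the range of the controls (log2 fold change -0.39, SE 0.192, edgeR adjusted p = 0.261). Gene counts do not separate its M1 and M2 splice forms. Per kilobase of transcript, Pklr made up 0.299%, 0.642% and 0.406% of pyruvate kinase reads in the controls and 2.29%, 1.71% and 1.99% in the knockouts. The share of Pkm was thus lower by 1.55 percentage points in knockout islets, with no overlap (two-sided exact permutation p = 0.1, the smallest that 3 against 3 allow; adjusted p = 0.2 over the 6 isozyme groups compared).

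H6pd, which encodes the hexose-6-phosphate dehydrogenase of the endoplasmic reticulum and feeds NADPH to enzymes in its lumen, rose 1.55-fold. Control libraries measured 53.2, 46.5 and 49.8 CPM and knockout libraries 73.0, 79.4 and 78.4 CPM, so that all knockout values exceeded all control values. The log2 fold change was 0.63 (SE 0.11, edgeR adjusted p = 0.00498). Leaving out any single library kept the call, and leaving out the shallow library of each group ended it (edgeR adjusted p = 0.0776, log2 fold change 0.71).

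The cytosolic genes of the pentose phosphate pathway were not called. G6pdx, the glucose-6-phosphate dehydrogenase that is the cytosolic counterpart of H6PD, had 52.2, 54.2 and 58.0 CPM in the controls and 45.0, 48.9 and 51.0 CPM in the knockouts. Its groups did not overlap, but the difference was small (log2 fold change -0.18, SE 0.113, edgeR adjusted p = 0.392). Pgd, the next dehydrogenase of the oxidative branch, measured 84.0 ± 1.11 and 89.5 ± 12.6 CPM (mean ± SD, n = 3 for control and knockout). In the nonoxidative branch the transketolase gene Tkt measured 122 ± 10.9 and 118 ± 13.8 CPM, and the transaldolase gene Taldo1 164 ± 26.7 and 141 ± 31.8 CPM. The groups overlapped for these 3 genes, whose log2 fold changes lay between -0.21 and 0.09. Of 8 further pentose phosphate and ribose genes tested out of 11 listed, none was called by edgeR, DESeq2 or limma-voom, and 2 had an unadjusted edgeR p under 0.05.

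Genes that respond to the antioxidant factor NRF2, which also acts on cytosolic pentose phosphate enzymes, were listed for comparison without any member. The list was chosen with earlier results of these data known, so its share of calls is not independent of them. By edgeR, 4 of 16 rose (25.0%, against 3.72% of all genes tested called higher) and 0 fell. DESeq2 and limma-voom each called 5 higher and 0 lower. Among all genes DESeq2 called 1061 higher and 956 lower, and limma-voom 794 and 732. The median log2 fold change was 0.24, with 11 positive and 5 negative values. An unadjusted edgeR p under 0.05 was reached by 7 (43.8%, against 21.6% of all genes), not all of them positive. The part of NRF2 in these values was not tested. Gstm1, a glutathione transferase gene, went from 69.5 ± 8.54 to 169 ± 25.4 CPM (edgeR adjusted p = 0.000224). Gsr, whose enzyme spends NADPH to reduce glutathione, went from 50.7 ± 4.66 to 73.2 ± 4.89 CPM (0.0171, both edgeR), Osgin1 from 21.2 ± 4.19 to 36.6 ± 5.55 CPM (0.0164) and the quinone reductase gene Nqo1 from 4.43 ± 1.22 to 9.03 ± 1.06 CPM (0.0223). Without control 1 the edgeR call of Gstm1 alone was kept, with adjusted p of 0.058 for Gsr, 0.0659 for Osgin1 and 0.0828 for Nqo1. The calls of Gsr, Osgin1 and Nqo1 were also lost without control 2 (edgeR adjusted p = 0.106, 0.0506 and 0.11) and without knockout 1 (0.0534, 0.0759 and 0.0576). They were lost without both shallow libraries too (0.15, 0.173 and 0.172), and those of Gsr and Nqo1 without knockout 2 (0.0686 and 0.0762). Gstm1 was called in all 17 alternatives.

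**Figure D2:**
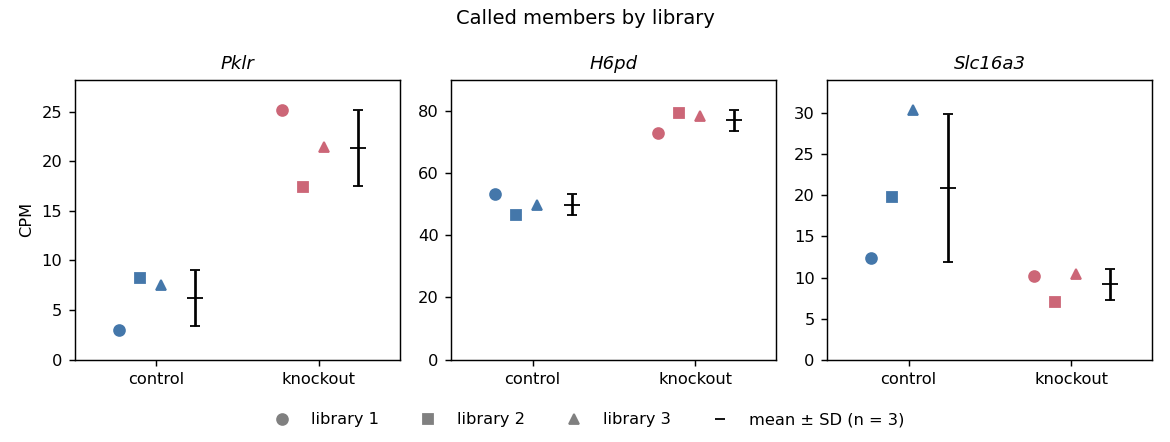
CPM (y axis, from 0) of the called members Pklr, H6pd and Slc16a3 in each library; circles, squares and triangles are libraries 1, 2 and 3 of a group, and black bars are the mean ± SD (n = 3). Knockout values exceed all control values for Pklr and H6pd and lie below all of them for Slc16a3, whose control values run from 12.4 to 30.5 CPM.

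Slc16a3 encodes MCT4, the carrier through which glycolytic cells export lactate. The control libraries had 12.4, 19.8 and 30.5 CPM and the knockout libraries 10.2, 7.02 and 10.4 CPM. The groups did not overlap, although control 1 was close to the knockouts and control 3 was far above them. The log2 fold change was -1.21 (SE 0.300, edgeR adjusted p = 0.0413). This call was lost without control 2 (edgeR adjusted p = 0.145), control 3 (0.0625), knockout 1 (0.115), knockout 2 (0.105) or knockout 3 (0.16), and without both shallow libraries (0.0776), so it was kept only without control 1 among the libraries left out; the log2 fold change was -0.82 without control 3.

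Ldhb, the heart-type lactate dehydrogenase gene, measured 10.6, 9.73 and 8.405 CPM in the controls and 7.76, 6.67 and 6.69 CPM in the knockouts. The groups did not overlap, but Ldhb was not called (log2 fold change -0.44, SE 0.189, edgeR adjusted p = 0.193). Ldha, the muscle-type gene that beta cells normally keep low, stands outside the 31. It had 81.5, 145 and 175 CPM in the controls and 74.4, 102 and 67.0 CPM in the knockouts. Its main edgeR fit gave an adjusted p of 0.218 at a log2 fold change of -0.73. Of the 17 alternatives, 3 called Ldha: edgeR with no filter (adjusted p = 0.00351), DESeq2 (0.0256) and edgeR without control 1 (0.0183). Leaving out control 3 gave no call. Over the 17, its log2 fold change ran from -0.98 to -0.48. The Ldhb share of lactate dehydrogenase reads per kilobase was 15.3%, 8.53% and 6.26% in the controls and 12.7%, 8.33% and 12.2% in the knockouts, with overlap. Slc16a1, which encodes MCT1, was at 2.71, 2.94 and 2.76 CPM in the controls and 3.36, 6.25 and 3.11 CPM in the knockouts, without overlap (edgeR adjusted p = 0.288, log2 fold change 0.61).

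The 9 main isozymes all had negative log2 fold changes, from -1.01 for Pgk1 to -0.13 for Gpi1, with a median of -0.58. None was called by edgeR, and 5 had an unadjusted p under 0.05 (55.6%, against 21.6% of all genes tested). DESeq2 called 4 lower (Aldoa, Tpi1, Gapdh and Pgam1), beside 956 lower among all genes. For limma-voom the numbers were 0 and 732. Against all genes tested, these genes differed in the spread among controls, which some other members shared. Control 3 over control 1 had a median of 2.46 for the 9 and 1.05 for the other 22 members. Its median over all genes tested with a count in every library was 1.01. Of the 22, the ratio was largest for Fbp2 (4.2), Aldoc (2.76), Pklr (2.5), Slc16a3 (2.45), Pfkp (2.31) and Pfkfb3 (1.84). Each of the 9 was highest of all 6 libraries in control 3 (9 of 9, against 11.7% of all genes tested). Each also rose in the order control 1, control 2, control 3 (9 of 9, against 20.7%). The highest control exceeded the lowest by between 1.83 and 2.95 times, while the knockout libraries differed from each other by between 1.07 and 1.23 times. Summed over the 9, control 1, 2 and 3 reached 4227, 5940 and 9286 CPM, while knockout 1, 2 and 3 reached 4537, 4198 and 4232 CPM, so control 1 lay within the range of the knockouts.

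Which control was left out therefore set the outcome. Without control 3 the median log2 fold change of the 9 was -0.25, and 7 of them were negative. There edgeR called 0 of the 9 (3 at an unadjusted p under 0.05), beside 590 of all 19245 genes tested called lower. Without control 1 the median was -0.80. In that fit edgeR called 4 lower, Tpi1, Gapdh, Pgk1 and Pgam1, beside 349 of all 19429 genes. Without control 1 and knockout 1 the median was -0.84, with 8 of the 9 at an unadjusted p under 0.05. That edgeR fit called 0 of the 9, beside 48 of all 19018 genes called lower. The share of all genes at an unadjusted p under 0.05 was not computed for these fits.

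**Figure D3:**
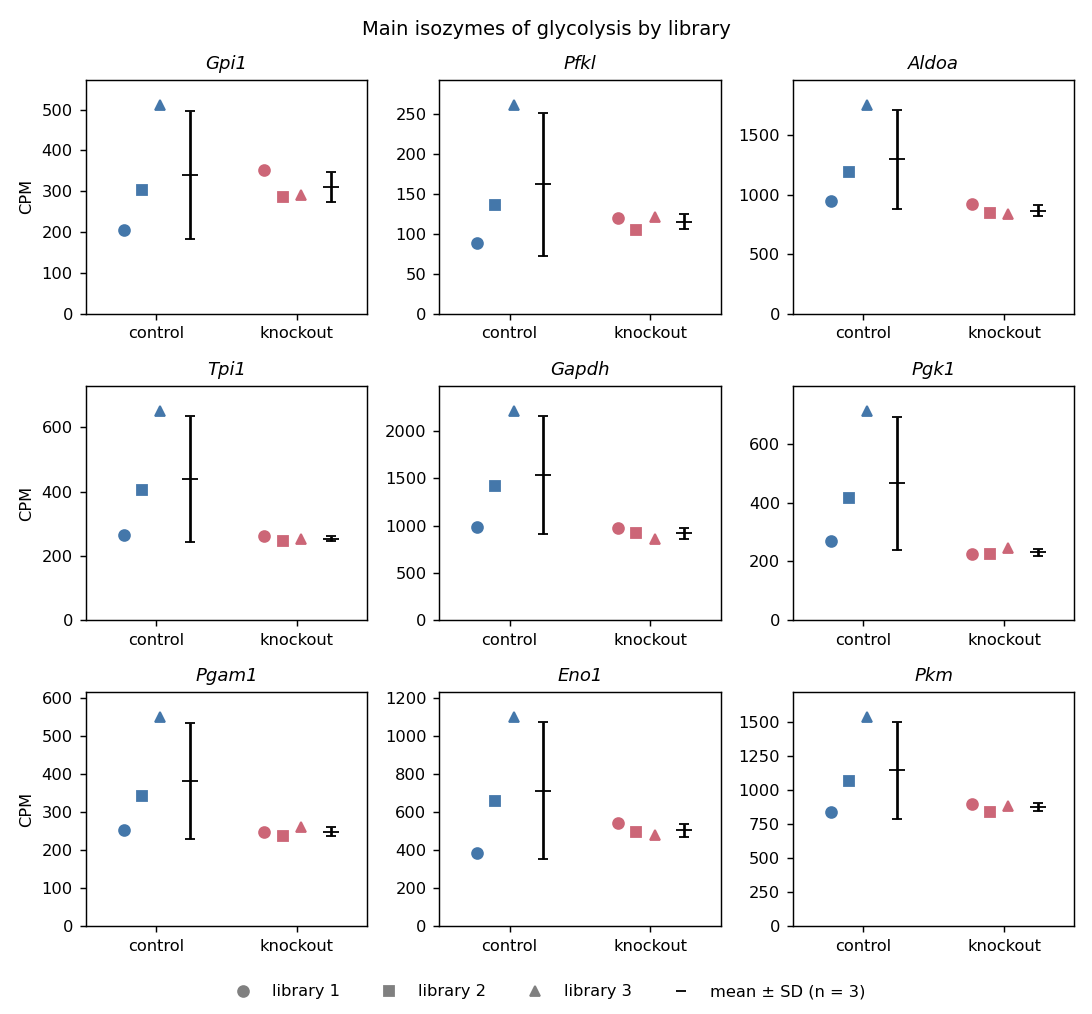
CPM (y axis, from 0, with its own scale in each panel) of the 9 main glycolytic isozymes in each library; symbols are libraries 1, 2 and 3 of a group and black bars the mean ± SD (n = 3). In every panel the control 3 triangle is highest and control 1 is the lowest control, while the 3 knockout libraries lie close together.

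In the upper, ATP-consuming stretch of the pathway, Gpi1 (glucose-6-phosphate isomerase) measured 205, 303 and 511 CPM in the controls and 352, 287 and 291 CPM in the knockouts, and Pfkl, the liver-type phosphofructokinase gene, 88.4, 135 and 261 against 119, 104.5 and 121 CPM. The knockout values of both lay inside the control range (edgeR adjusted p = 0.858 and 0.565). Aldoa, the main aldolase gene, had 945, 1194 and 1756 CPM in the controls and 919, 846 and 837 CPM in the knockouts. Its groups did not overlap, by a narrow margin between control 1 and knockout 1 (log2 fold change -0.58, SE 0.197, edgeR adjusted p = 0.0976). Tpi1, the triose phosphate isomerase gene, had 265, 403 and 650.3 CPM against 262, 245 and 253 CPM (edgeR adjusted p = 0.163, log2 fold change -0.80 with SE 0.290), again with control 1 just above the knockouts. The second Aldoa ID stayed between 0.0647 and 1.98 CPM.

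In the lower stretch, which yields ATP, Gapdh (glyceraldehyde-3-phosphate dehydrogenase, often used as a reference gene) measured 982, 1422 and 2214 CPM in the controls and 974, 919 and 863 CPM in the knockouts. Control 1 lay just above knockout 1 (log2 fold change -0.74, SE 0.243, edgeR adjusted p = 0.0934). Pgk1, the phosphoglycerate kinase gene whose promoter holds ACGTG on each strand, had 269, 414 and 711 CPM against 223, 224.8 and 244 CPM. All its knockout values lay below control 1 (log2 fold change -1.01, SE 0.329, edgeR adjusted p = 0.132). Pgam1 (phosphoglycerate mutase) went from 382 ± 152 to 249 ± 12.2 CPM and Eno1 (enolase) from 712 ± 360 to 504 ± 33.0 CPM on average, with overlapping groups and edgeR adjusted p of 0.179 and 0.477.

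Several of these genes have near-identical copies in the genome, so their counts are uncertain. Rows with at least 95% identity over 300 bases were found for 8 members. The 77 such rows of Gapdh together held between 97.0% and 116% of the Gapdh count itself, the 4 of Pgk1 between 48.0% and 57.2%, that of Pgam1 between 24.8% and 35.9% and the 3 of Eno1 between 28.4% and 32.6%. Summing each gene with its copies gave log2 fold changes of -0.68 for Gapdh, -0.98 for Pgk1, -0.55 for Pgam1 and -0.48 for Eno1, none of them called.

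Other values moved with this pattern among the controls. The library totals had the same order, 17587055, 89044012 and 225428920 counts. So did the summed beta-cell markers, at 188678, 217614 and 243778 CPM, a sum made up mostly of Ins1, Ins2 and Iapp. Taken singly, only 3 of the 9 beta-cell markers had controls in this order. Of the same 9, 8 were highest of all 6 libraries in control 3. The alpha, the delta and PP, the acinar and the stromal sums were lowest of the controls in control 3, at 20771, 5989, 16884 and 106 CPM. Of 19 target genes of the hypoxia factor HIF-1 outside glycolysis, 13 were highest in control 3 and 16 had controls in the order 1, 2, 3; their median log2 ratio to the gene's own mean was -0.23, -0.02 and 0.69 in control 1, 2 and 3 and -0.24, -0.17 and -0.00 in knockout 1, 2 and 3. Bnip3, a mitochondrial hypoxia-response gene singled out after its values were seen, had 44.5, 66.9 and 155 CPM in the controls. Between the groups, 1 of the 19 was called by edgeR, Higd1a, which fell from 18.8 ± 1.48 to 10.5 ± 2.16 CPM (adjusted p = 0.015; 0.0777 without control 2, 0.0632 without knockout 1 and 0.139 without both shallow libraries). The 1 edgeR call made up 5.26% of the list, against 3.35% of all genes called lower. DESeq2 called 4 of the list lower (956 among all genes) and limma-voom 2 (732 among all genes). Without control 3 edgeR called 3 higher and 1 lower, beside 719 and 590 of all 19245 genes. The list's median log2 fold change was -0.33, or -0.11 without control 3. The 6 skeletal muscle markers ran the other way, summing to 595, 166 and 41.6 CPM in control 1, 2 and 3, beside 139, 55.9 and 50.4 CPM in the knockouts, and none was at 0. The part of depth, of cell makeup, of the HIF-1 genes and of muscle RNA in the spread of the glycolytic genes was not tested.

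**Figure D4:**
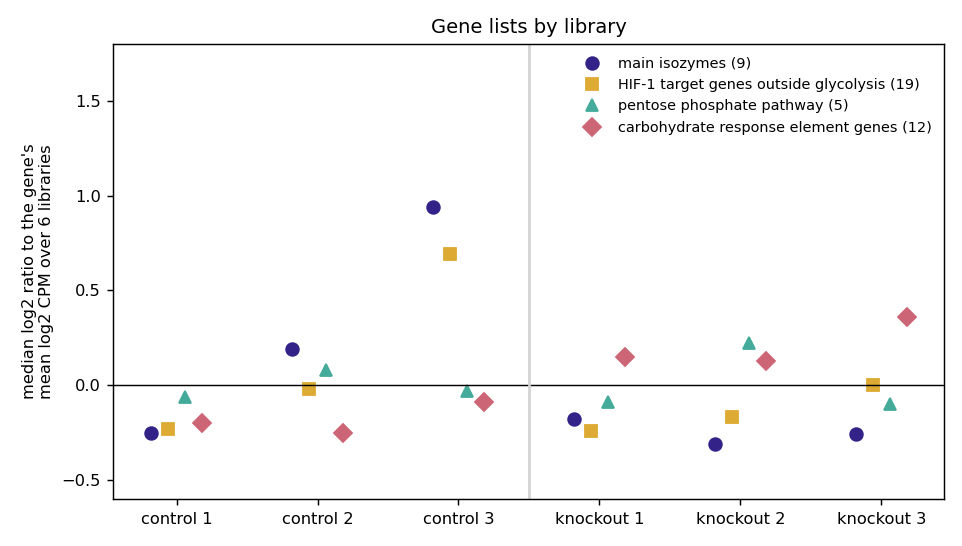
Median over the genes of a list of the log2 ratio to each gene's mean log2 CPM over the 6 libraries (y axis), by library (x axis), for the 9 main isozymes, 19 HIF-1 targets, 5 pentose phosphate genes and 12 genes with carbohydrate response elements. The main isozymes reach 0.94 and the HIF-1 targets 0.69 in control 3, while the carbohydrate response genes lie below 0 in all controls and above 0 in all knockouts.

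Among the other alternative isozymes, Eno2, the enolase of neurons and endocrine cells, had 42.5, 43.4 and 49.7 CPM in the controls and 37.9, 31.2 and 35.9 CPM in the knockouts. It lacked the spread of Eno1, and its groups did not overlap (log2 fold change -0.37, SE 0.127, edgeR adjusted p = 0.0975). Aldoc, the brain-type aldolase gene, had 9.26, 15.3 and 25.6 CPM in the controls and 12.3, 9.46 and 13.5 CPM in the knockouts, an order among the controls like that of Aldoa. Pfkp, the platelet-type phosphofructokinase gene, was also highest in control 3, at 123 CPM beside 53.0 and 60.7 CPM in control 1 and 2 and 64.3 to 66.8 CPM in the knockouts. The muscle-type gene Pfkm lay between 50.1 and 69.5 CPM in the controls and 44.5 and 57.5 CPM in the knockouts, and Hk2, the inducible hexokinase gene that islets keep low, between 3.26 and 5.19 CPM in the controls and 2.90 and 5.09 CPM in the knockouts. Log2 fold changes of these 4 genes lay between -0.53 and 0.06, and none was called.

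**Figure D5:**
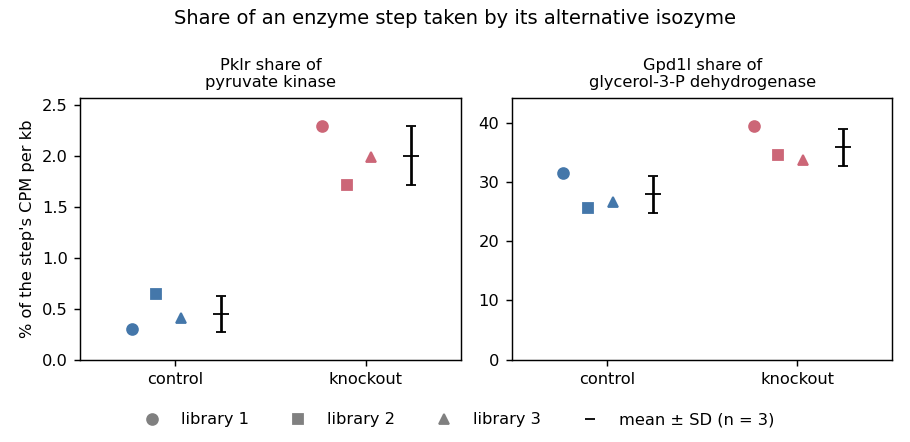
Share of a step's reads per kilobase of transcript (y axis, percent, from 0) taken by Pklr among pyruvate kinases and Gpd1l among the cytosolic glycerol-3-phosphate dehydrogenases; symbols are libraries 1, 2 and 3 and black bars the mean ± SD (n = 3). In both panels all 3 knockout libraries lie above all 3 control libraries.

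Pklr was set beside 12 other genes with known carbohydrate response elements or glucose response. This list was chosen with earlier results of these data known, so its share of calls is not independent of them. By edgeR 4 of the 12 rose (33.3%, against 3.72% of all genes tested called higher) and 0 fell. DESeq2 and limma-voom also called 4 higher and 0 lower, beside 1061 and 794 higher among all genes. An unadjusted edgeR p under 0.05 was reached by 6 (50.0%, against 21.6% of all genes). The median log2 fold change was 0.34, with 9 positive and 3 negative values. Txnip, the thioredoxin-binding arrestin gene, went from 111 ± 16.0 to 331 ± 57.3 CPM (edgeR adjusted p = 0.000105) and its relative Arrdc4 from 14.8 ± 1.22 to 37.3 ± 0.830 CPM (0.000127). The transcription factor gene Klf10 went from 19.1 ± 0.872 to 43.3 ± 1.45 CPM (edgeR adjusted p = 0.000164) and Rgs16 from 20.7 ± 2.92 to 43.8 ± 8.55 CPM (0.00205). These 4 kept their edgeR calls in all 17 alternatives. Mlxipl, the gene of ChREBP itself, had an edgeR adjusted p of 0.176 at a log2 fold change of 0.34. The part of ChREBP in the values of Pklr and of these genes was not tested.

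The bifunctional enzymes PFKFB2 and PFKFB3 make and break fructose 2,6-bisphosphate, the activator of phosphofructokinase. Pfkfb2 measured 18.1, 14.4 and 17.04 CPM in the controls and 8.86, 9.90 and 14.9 CPM in the knockouts, with overlap through knockout 3 (log2 fold change -0.54, SE 0.204, edgeR adjusted p = 0.140; 0.0214 without knockout 3). Pfkfb3 had 15.5, 17.03 and 28.5 CPM against 28.7, 26.0 and 25.1 CPM. Control 3 was thus as high as the knockouts, and the gene was not called with it (log2 fold change 0.37, edgeR adjusted p = 0.325) but was called higher without it (0.71, edgeR adjusted p = 0.022).

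Of the gluconeogenic members, Pck2, the mitochondrial phosphoenolpyruvate carboxykinase gene, was the abundant one. It had 187, 213 and 196 CPM in the controls and 160, 161 and 166 CPM in the knockouts, without overlap and with a small difference (log2 fold change -0.29, SE 0.108, edgeR adjusted p = 0.127). The fructose-1,6-bisphosphatase genes Fbp1 and Fbp2 measured 12.5 ± 3.91 and 12.0 ± 3.02 CPM and 3.87 ± 2.28 and 3.39 ± 0.949 CPM in the controls and knockout islets. Both overlapped between the groups (edgeR adjusted p = 0.876 and 0.791).

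Glycerol-3-phosphate dehydrogenases carry NADH electrons from glycolysis toward the mitochondria, with Gpd1 and Gpd1l in the cytosol and Gpd2 in the mitochondrial membrane. Gpd1 measured 31.2 ± 1.21 and 25.8 ± 6.15 CPM, Gpd1l 18.7 ± 3.65 and 21.9 ± 2.78 CPM and Gpd2 53.1 ± 1.58 and 53.0 ± 9.57 CPM in the controls and knockout islets. None was called, with edgeR adjusted p of 0.399, 0.461 and 0.992, and each overlapped between the groups. Within the cytosolic pair the share of Gpd1 per kilobase was 68.5%, 74.3% and 73.4% in control and 60.5%, 65.4% and 66.3% in knockout libraries, a difference of -7.97 percentage points with no overlap (two-sided exact permutation p = 0.1, adjusted p = 0.2 over the 6). The Pfkl share of phosphofructokinase and the Eno1 share of enolase overlapped between the groups (exact permutation p = 0.7 and 0.9), as did the Ldhb share (0.9). Khk, the gene of the fructose-phosphorylating ketohexokinase, had 12.7 ± 1.30 and 13.1 ± 0.610 CPM (log2 fold change 0.03, edgeR adjusted p = 0.939).

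Per kilobase of transcript, Gapdh (1084 ± 440 CPM per kb), Aldoa (838 ± 268) and Pkm (472 ± 146) were the most abundant members in control islets, and they kept this order in knockout islets (607.6 to 686, 541 to 593 and 346 to 369.8 CPM per kb). The SDs of neighbours in this order overlapped in control islets. Hk2 was the lowest member in both groups, at 0.737 ± 0.183 and 0.761 ± 0.208 CPM per kb. Hk1, a hexokinase gene outside the 31, measured 4.79 ± 0.964 and 4.63 ± 0.163 CPM per kb in control and knockout islets and was not called (edgeR adjusted p = 0.883 at a log2 fold change of -0.06).

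Of 28 further genes of glycolysis and gluconeogenesis, 23 were tested, with a median log2 fold change of -0.34, and edgeR called 1 lower. The gene that fell was G6pc2, whose product returns glucose 6-phosphate to glucose in beta cells: 1431, 1327 and 1900 CPM in the controls against 601, 607 and 798 CPM in the knockouts (edgeR adjusted p = 0.00175; 0.105 without both shallow libraries). Pgk2 and Ldhc, isozymes of the testis, were at 0 in all 6 libraries.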

How the data were processed

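RNA of whole islets was sequenced in 6 libraries, 3 control and 3 knockout. Per the submitters' processing notes, the tools were STAR 2.7.3a, featureCounts, Trim Galore 0.6.7 and FastQC 0.11.9, with build GRCm39 (mm39). Not given in the sources used here: annotation release, strand setting, and how read pairs and multi-mapping reads were treated. The authors deposited whole-number counts per Ensembl gene ID without normalization. Between 62.3% and 73.2% of a library's nonzero counts were even numbers. Column names give the group but not the animal, so libraries are numbered after the columns.

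Symbols (52073 of 56980 IDs), transcript lengths (longest basic transcript) and copies or overlapping exons came from GENCODE vM21, of another build, by gene ID; 14 members share exon bases with another gene, and without a strand setting such reads cannot be told apart. Counts were tested with edgeR 4.0.16 in R 4.3.3 (filterByExpr, TMM factors, robust quasi-likelihood test), with Benjamini-Hochberg adjustment over 18558 genes; a gene is called at an adjusted p under 0.05. CPM use TMM-scaled library sizes, and SE derives from the test statistic. The test was tested on simulated data first. It called 7.46% of genes changed 1.5-fold, 47.8% of those changed 2.0-fold, 68.2% of those changed 4.0-fold and 0.049% of unchanged genes. A gene not called may thus still have changed.

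The members and lists were chosen with earlier results of these data known. All 31 members are named, with values in every library for called members, for members whose groups did not overlap at an unadjusted p under 0.05, and for isozymes of a step with a called isozyme; other lists give up to 4 called genes, plus Ldha, Slc16a1 and Hk1. Some listed genes, and the isozyme share that needs one of them, are not reported here. Marker lists covered 12 cell types or tissues. Alternatives were DESeq2 size factors, upper-quartile factors, hormone and acinar genes left out, a filter of 1 CPM or none, limma-voom (limma 3.58.1), DESeq2 1.42.0, length and GC offsets, an acinar covariate, each library left out, both shallow libraries left out and, added after seeing the data, members summed with their copies.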

Additional observations from a re-analysis of the deposited data

How the results depend on the processing

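Calls of members higher in knockout (2) ranged from 1 to 3 when single libraries were left out, fell to 1 without the shallowest library of each group, where H6pd was lost, and stayed at 2 in the other alternatives. Calls of members lower (1) numbered 5 without a filter, 5 by DESeq2 and 3 with length and GC offsets (Pfkfb2, Slc16a3 and Pck2). They numbered 0 without the shallowest library of each group and 0 to 5 when single libraries were left out. Calls of all genes lower numbered 931 without a filter, 956 by DESeq2, 624 with the offsets and 48 without both shallow libraries. The cause was not tested. The median log2 fold change of the 9 main isozymes kept its sign in all 17 alternatives, between -0.84 and -0.25. Over all genes, upper-quartile factors called 613 higher and 829 lower genes (42.5% higher) against 691 and 621 (52.7%), with the same members called. Isozyme shares changed sign when a library was left out for Pfkl (without control 3, 1.35 percentage points; range -8.3 to 1.35), Eno1 (without control 1, -0.923; range -0.923 to 1.21) and Ldhb (without control 3, -0.831; range -0.831 to 3.68). No paired analysis was possible because the titles of the groups share a single number and the columns are numbered in another way than the titles, so that columns could be assigned to groups but not to titled samples. Depth limits the shallow libraries most, where 3 counts equal 0.171 and 0.201 CPM.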

Other observations

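The muscle forms of glycolytic enzymes outside the members were highest in control 1, the library with the highest sum of skeletal muscle markers. Eno3, the muscle enolase gene, measured 32.1 CPM in control 1, 8.75 and 6.06 CPM in control 2 and 3 and 4.14 to 9.31 CPM in the knockouts. Pgam2, the muscle phosphoglycerate mutase gene, measured 7.395 CPM in control 1 and 0.861 to 2.39 CPM in the other libraries. Neither was called by edgeR (adjusted p = 0.405 and 0.67). Both were singled out after their values were seen.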
